A study of Gallus gallus with 4 samples.

Results

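The extracellular matrix genes of the chicken ovary are the 196 genes that the deposited gene ontology (GO) tables list under the term extracellular matrix, of 17934 genes in the population the tables were made with. The term is listed for both comparisons of the study, and its 196 identifiers were the same in both tables. The values that could be read out for each gene were whether it was called differentially expressed in each comparison and under which other terms it stands.

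The ovaries came from Ningdu Yellow chickens of 2 sub-breeds. In the early sexual maturity sub-breed, P-F-O2 were ovaries of laying hens aged 103 days and P-F-O1 were ovaries of pre-laying hens aged 32 days. In the late sexual maturity sub-breed, L-F-O2 were ovaries at 153 days and L-F-O1 were pre-laying ovaries at 32 days. L-F-O2 is given as laying in the characteristics of its GEO record but as pre-laying in the design text of the series, and the study's own text gives it both ways, as pre-laying in the methods and as laying elsewhere, so it is called here by its name and age. No treatment, transgene or mutation is given for any group. RNA of 5 ovaries was mixed in equal amounts for each of the 4 libraries. This leaves 1 library per group, no replicate library to check any difference and no test over samples. The study measured some genes again by qPCR, but none of the matrix genes named here was among them. Age and laying state differ together within the early sub-breed, and the older ovaries of the sub-breeds differ in age by design, so these cannot be told apart. In such bulk samples fewer cells of a type and less RNA per cell cannot be told apart either. The comparisons, of the older with the younger ovaries, go by the name of the sub-breed. A gene was called differentially expressed by the authors if its FPKM, a level per length and depth, was at least 0.3 and the levels differed by at least 2-fold, or if its p-value in Cuffdiff was below 0.05. The tables hold no level, fold change or direction for any gene, so "called" says that the older and younger ovaries differed by this rule, not which of them was higher. They also do not say which genes were expressed at all, and a gene that was not called may have been absent from the ovary. For the same reason the tissue could not be checked against ovarian marker genes, and the depth behind each call is unknown from the tables. The study gives more reads for both older libraries than for the younger ones, and the part of this in the calls was not tested. It also reports fewer detected genes than the 17934 of the population. The called shares of all population genes given below therefore include undetected genes, as those of the matrix genes may.

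The extracellular matrix is the network of secreted proteins and sugars that surrounds cells. Collagens and elastic fibres give it strength, laminins and other proteins form basement membranes, proteoglycans hold water and growth factors, adhesive glycoproteins tie cells to it through integrins, and secreted proteases cut and remodel it. In the hen ovary each follicle is wrapped in theca layers rich in collagen, a basement membrane under the granulosa cells and an egg coat, the inner perivitelline layer, around the oocyte, and these grow and are remodelled as follicles mature.

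More than the background share of the matrix genes was called in each sub-breed. In the early sub-breed 108 of the 196 were called for P-F-O2 against P-F-O1, which is 55.1% (95% Wilson interval 48.1 to 61.9%), beside 28.1% of all 17934 population genes. In the late sub-breed 98 were called for L-F-O2 against L-F-O1, which is 50.0% (43.1 to 56.9%), beside 23.2% of all population genes. The intervals cover the counting of genes only, and genes are not replicates. The term is in the tables because the authors' enrichment test listed it, so these shares describe the list and are no independent sign that it stands apart.

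Most matrix genes called in 1 sub-breed were called in the other too. Of the 196 genes, 88 were called in both sub-breeds, 20 in the early sub-breed alone, 10 in the late sub-breed alone and 78 in neither. The 88 shared genes were 81.5% of those called in the early sub-breed and 89.8% of those called in the late sub-breed. Among the 11224 other genes that both tables name, the 1949 shared genes were 63.1% of those called in the early sub-breed and 78.8% of those called in the late sub-breed. The uncalled genes were 39.8% of the matrix genes and 67.8% of the other genes. The 2 comparisons share no library, and none of these differences was tested.

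**Figure D1:**
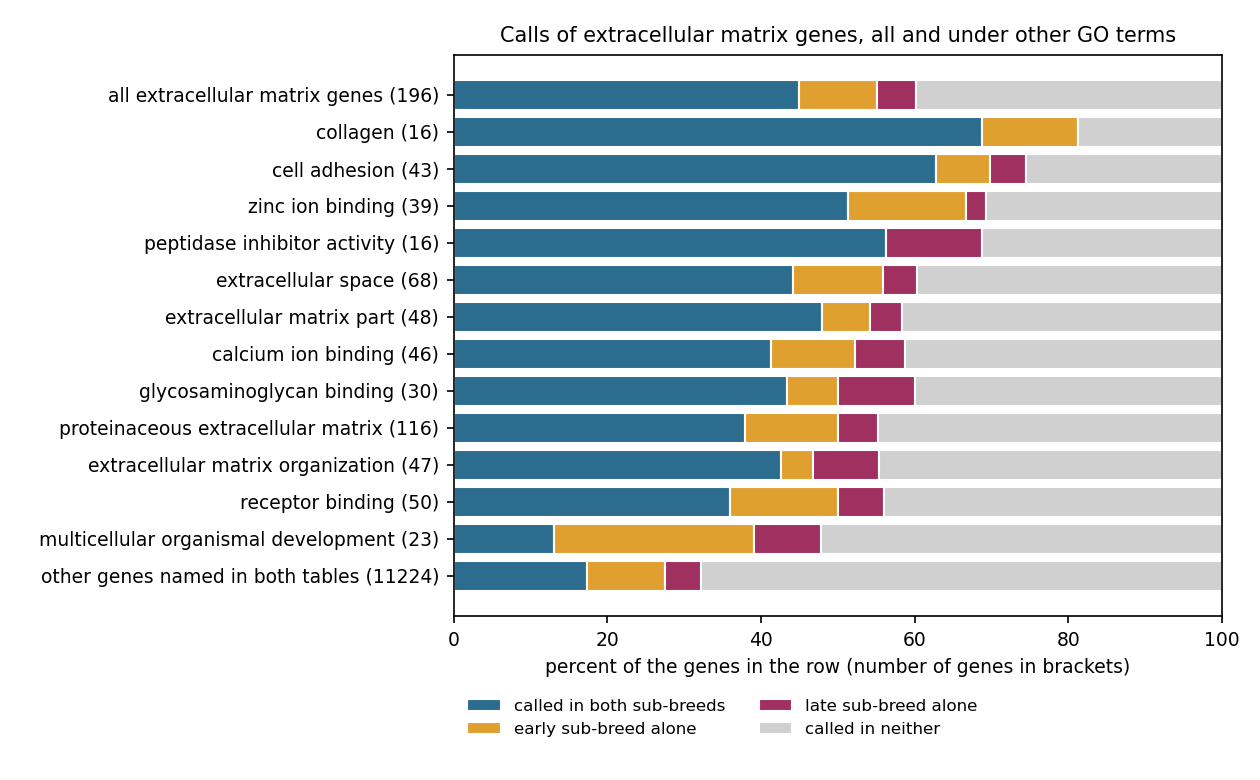
Percent of genes called in both sub-breeds, in the early or late sub-breed alone, or in neither (horizontal axis, stacked to 100%), for all 196 extracellular matrix genes, for those of them that stand under another GO term (number of genes in brackets) and for the 11224 other genes named in both tables. The part called in both is 88 of 196 for all matrix genes, 11 of 16 for collagen and 3 of 23 for multicellular organismal development.

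Set beside other terms of at least 100 genes, the matrix list lay at the upper end of the called shares in both sub-breeds. Of the 111 GO terms with at least 100 genes that both tables list, extracellular matrix had the highest called share in the early sub-breed and the 2nd highest in the late sub-breed. The structural constituents of the ribosome, at 54.0%, and immune response, at 53.6%, came next in the early sub-breed. Their shares in the late sub-breed were 38.0% and 41.7%. The term extracellular matrix part, which holds 102 genes, had 52.0% called in the early sub-breed, with 51.0% in the late sub-breed. Smaller terms were not ranked, and some of them had higher shares than extracellular matrix. Cytosolic small ribosomal subunit, with 20 genes, had 95% and 75% called in the early and late sub-breed. Cytosolic large ribosomal subunit, with 33 genes, had 84.8% and 54.5%. Others were far lower, such as olfactory receptor activity, with 2.08% in each sub-breed. These terms overlap in their genes, and the tables hold only terms that were listed for a small p-value in either direction, so the order is that of a chosen set.

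**Figure D2:**
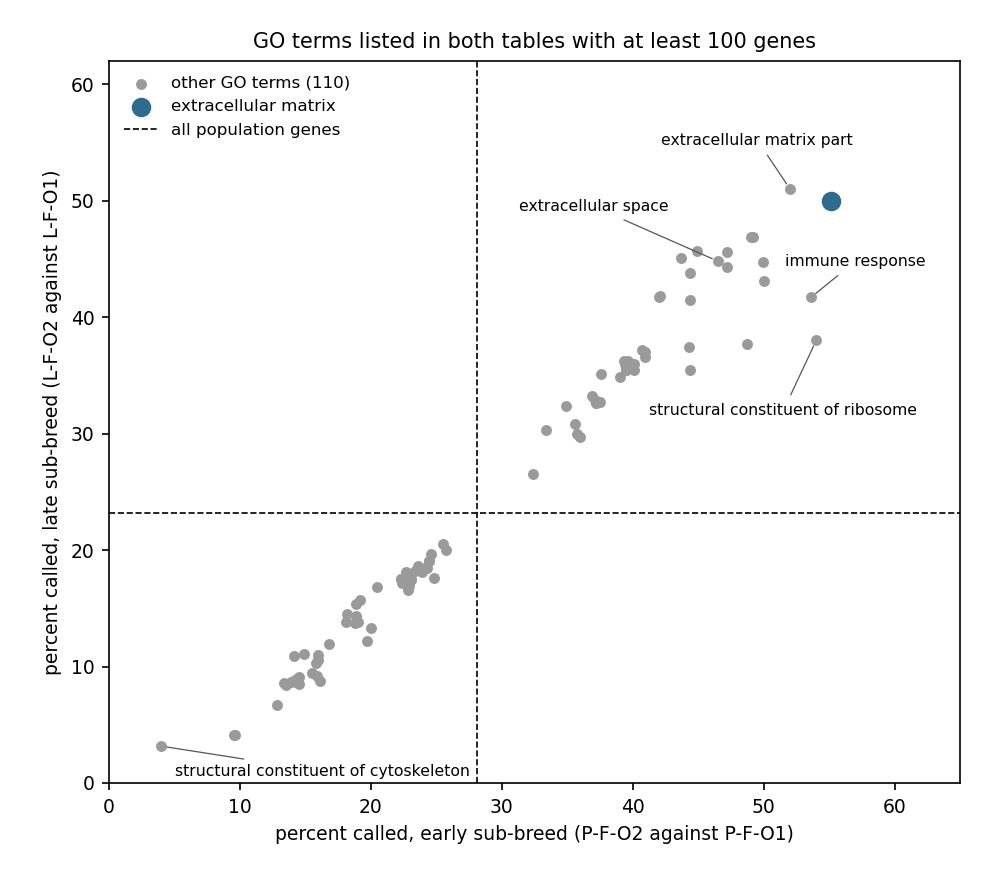
Each point is 1 of 111 GO terms of at least 100 genes listed in both tables, by the percent of its genes called in the early sub-breed (horizontal axis) or the late sub-breed (vertical axis), with dashed lines at the 28.1% and 23.2% of all population genes. Extracellular matrix lies at 55.1% and 50.0%, in the upper right corner.

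Names were at hand for 59 of the 196 genes, and every one of these was called in the early sub-breed. The names come from the study's list for that sub-breed, of which part was at hand, so 49 of the 108 genes called there, all 10 called in the late sub-breed alone and all 78 called in neither are known by identifier only. A named gene could therefore fall into only 2 classes, called in both sub-breeds (46 genes) or in the early sub-breed alone (13 genes). The families that follow describe these 59 genes and not the whole matrix. Their counts called in both stand beside 81.5% of all matrix genes called in the early sub-breed. Among the other early-called genes that both tables name, 63.1% were called in both. No family was tested against these shares.

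The fibre-forming collagens of the matrix list with a name were called in both sub-breeds. They are COL3A1 (ENSGALG00000002552), the chain of type III collagen of pliable tissues, COL5A1 (ENSGALG00000002546), a chain of type V collagen, which sets the width of fibrils, and COL11A1 (ENSGALG00000005180), a chain of type XI collagen, best known from cartilage. The named basement membrane genes were also called in both: LAMC3 (ENSGALG00000003852), a laminin gamma chain, and COL18A1 (ENSGALG00000004338), a collagen that carries heparan sulfate and from which endostatin is cut. Of the other collagens, COL6A1 and COL6A2, chains of the beaded microfibrils of type VI collagen, were called in both, and COL8A2, a chain of the net-forming type VIII collagen, was called in the early sub-breed alone. In all, 6 of the 7 named collagens were called in both sub-breeds.

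The GO term collagen was read from the tables for named and unnamed genes alike. Unlike the named collagens, its genes could also be called in the late sub-breed alone or in neither, so the counts are not alike. It holds 16 matrix genes, all of them also under extracellular matrix part, and 11 of these were called in both sub-breeds, 2 in the early sub-breed alone, none in the late sub-breed alone and 3 in neither. That is 81.2% called in the early sub-breed, with 68.8% in the late sub-breed. Another 29 genes stand under collagen but not under extracellular matrix, and of these 48.3% were called in the early sub-breed, with 51.7% in the late sub-breed. Collagen fibril organization, a term listed in the late sub-breed only, holds 12 matrix genes, of which 9 were called in both sub-breeds, 1 in the late sub-breed alone and 2 in neither.

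The fibre and adhesive glycoproteins were the second largest named family, with 12 of 14 genes called in both sub-breeds. Among these were ELN, the elastin of elastic fibres, CTGF, a secreted protein that binds growth factors and integrins, COMP, a thrombospondin that binds collagen, FN1 (ENSGALG00000003578), the fibronectin to which many cells attach, and VTN, the vitronectin of plasma and matrix. A further one, ENSGALG00000000327, carries the symbol FBN2 with a description as a fibrillin-3, and fibrillins form the microfibrils of elastic tissue. TGFBI, an integrin-binding protein, and TECTB, a tectorin known from the gel of the inner ear, were called in the early sub-breed alone. All 5 named proteoglycans were called in both: FMOD and PRELP, which have leucine-rich repeats and bind collagen, GPC3 and GPC4, glypicans anchored in the cell membrane, and ACAN, the aggrecan of cartilage.

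The egg coat genes ZP3 (ENSGALG00000001559) and ZP2 (ENSGALG00000002428) were called in both sub-breeds. Their proteins belong to the zona pellucida family that builds the envelope of the oocyte, and ZP3 is a main protein of the inner perivitelline layer in birds, made by granulosa cells. Both stand under cell part and plasma membrane as well, and only 1 of them, ZP3, stands under the narrower term proteinaceous extracellular matrix.

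**Figure D3:**
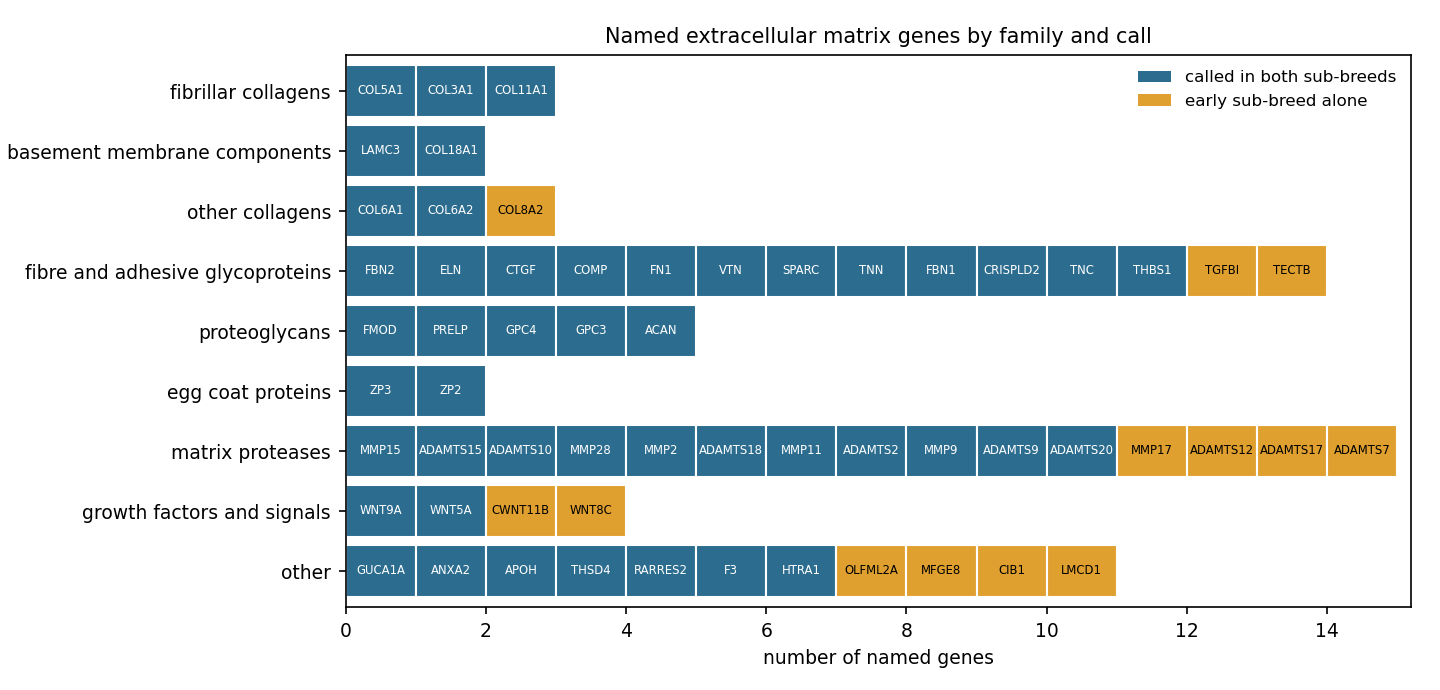
The 59 named extracellular matrix genes by family (rows), 1 box per gene, with the number of genes on the horizontal axis and the colour giving the call. Genes called in the early sub-breed alone are 13 of the 59: 4 of 15 matrix proteases, 4 of 11 other genes, 2 of 14 glycoproteins, 2 of 4 growth factors and signals, 1 of 3 other collagens and none of the 12 genes in the remaining families, and the families were not tested against each other.

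The matrix proteases were the largest named family, and 11 of their 15 genes were called in both sub-breeds. Of all matrix genes called in the early sub-breed 81.5% were called in both, and of the other early-called genes 63.1%. Of the 6 matrix metalloproteinases (MMPs), 5 were called in both and MMP17, a membrane-anchored one, in the early sub-breed alone. MMP2 (ENSGALG00000003580) and MMP9 (ENSGALG00000006992), the gelatinases that cut basement membrane collagen, were among the 5, with MMP15, also membrane-anchored, and MMP28. Of the 9 ADAMTS genes, secreted proteases with thrombospondin repeats, 6 were called in both, among them ADAMTS10 and ADAMTS15, and 3 in the early sub-breed alone. The 3 were ADAMTS7 and ADAMTS12, a related pair known to cut COMP, and ADAMTS17. The families were annotated differently: all 9 ADAMTS genes stand under proteinaceous extracellular matrix, against 1 of the 6 MMPs, which is MMP2.

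All 15 genes of the protease family, which was set by symbol, bind zinc by annotation. The term zinc ion binding, listed in the late sub-breed only, was therefore read for named and unnamed genes alike. It is not a term of proteases, inside or outside the matrix list. Among the named matrix genes it also holds LMCD1, a LIM domain protein that does not stand under catalytic activity. It holds 39 matrix genes, of which 20 were called in both sub-breeds, 6 in the early sub-breed alone, 1 in the late sub-breed alone and 12 in neither. That is 66.7% in the early sub-breed, with 53.8% in the late sub-breed, where 16.7% of the 1135 zinc-binding genes outside the matrix were called. Peptidase inhibitor activity holds 16 matrix genes, among them COL3A1, the tenascin TNN, GPC3 and THBS1, a thrombospondin that activates TGF-beta. Of the 16, 9 were called in both, none in the early sub-breed alone, 2 in the late sub-breed alone and 5 in neither. Here the share was larger in the late than in the early sub-breed, 68.8% against 56.2%, a difference of 2 genes. The 112 peptidase inhibitor genes outside the matrix had 48.2% and 43.8% called in the early and late sub-breed. The 7 of the 16 that also stand under cell adhesion, a group formed after the values were seen, were called in both. The wider term enzyme inhibitor activity holds 18 matrix genes, with 61.1% and 72.2% called in the early and late sub-breed. Its 158 genes outside the matrix had 45.6% and 41.1% called.

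Wnt ligands were the only named genes of the family of growth factors and signals, which was set by symbol. RARRES2, outside that family, also stands under receptor binding and was called in both sub-breeds. WNT5A (ENSGALG00000005410) and WNT9A (ENSGALG00000005401) were called in both sub-breeds, and WNT8C (ENSGALG00000006084) and CWNT11B (ENSGALG00000004401) in the early sub-breed alone. Wnts are lipid-bearing ligands of Frizzled receptors that bind to proteoglycans near the cells that secrete them, and WNT5A acts largely without beta-catenin. All 4 stand under receptor binding, proteinaceous extracellular matrix and multicellular organismal development. The last of these terms holds 23 matrix genes and 22 of them also stand under receptor binding. It had the lowest shares among the terms plotted: 3 genes were called in both sub-breeds, 6 in the early sub-breed alone, 2 in the late sub-breed alone and 12 in neither. That is 39.1% in the early sub-breed, with 21.7% in the late sub-breed, the second of which lies close to the 23.2% of all genes. The 151 genes of the term outside the matrix had 45.0% and 39.7% called in the early and late sub-breed. The 28 other matrix genes under receptor binding, a group formed after the values were seen, had 60.7% called in each sub-breed.

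Matrix genes annotated to cell adhesion had a larger called share than the rest of the list, a difference that was not tested. Of these 43 genes 27 were called in both sub-breeds, 3 in the early sub-breed alone, 2 in the late sub-breed alone and 11 in neither, which is 69.8% in the early sub-breed, with 67.4% in the late sub-breed. Among the 153 matrix genes not under cell adhesion the shares were 51.0% and 45.1%. The 275 adhesion genes outside the matrix had 37.8% called in each sub-breed. Names were at hand for 15 of the 30 adhesion genes called in the early sub-breed, of which 13 were called in both (COL5A1, COL3A1, CTGF, COMP, FN1, VTN, LAMC3, COL18A1, TNN, COL11A1, COL6A2, ACAN and THBS1) and 2 in the early sub-breed alone (TGFBI and MFGE8, a secreted protein that bridges dying cells and phagocytes). Collagens account for 9 of the 43, and the 34 adhesion genes that are not under collagen still had 67.6% and 64.7% called in the early and late sub-breed. With both terms set aside, 146 matrix genes were left, of which 49.3% were called in the early sub-breed, with 44.5% in the late sub-breed. These last splits were chosen after the values were seen.

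**Figure D4:**
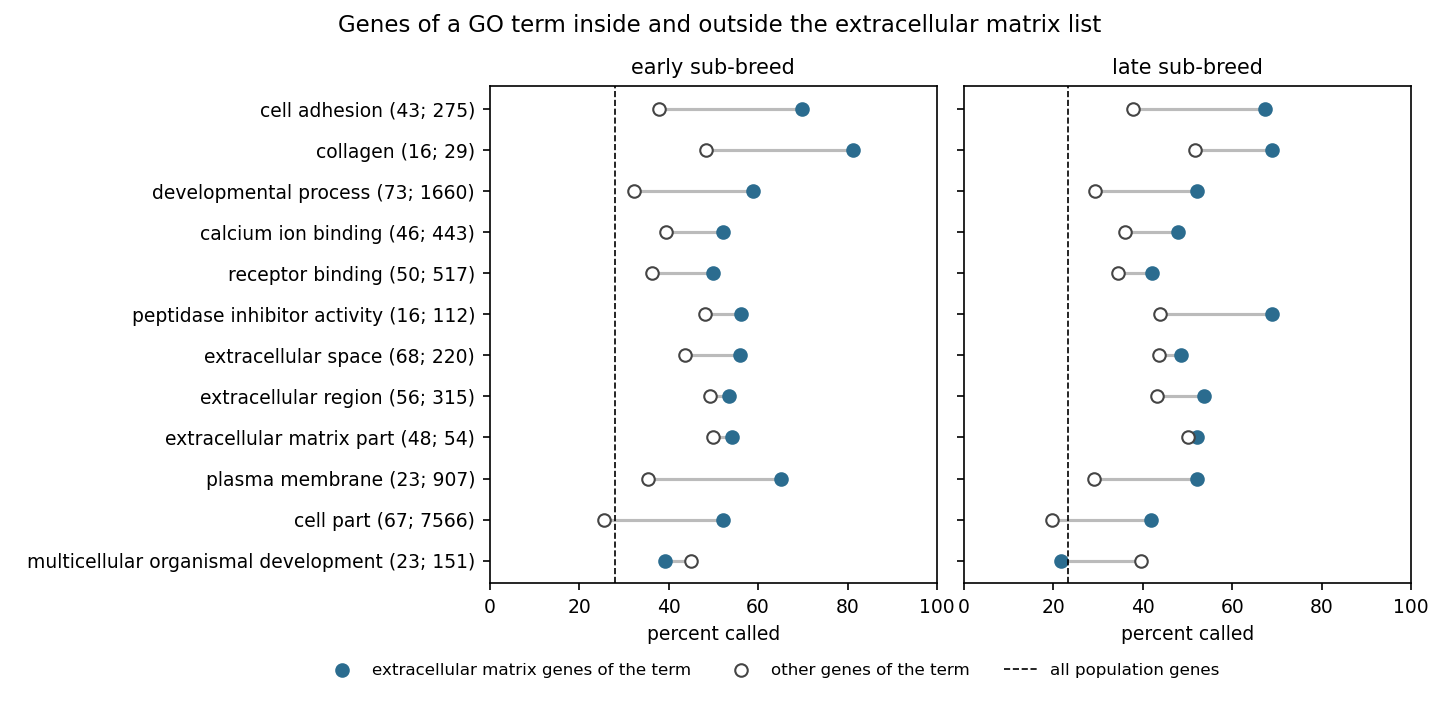
Percent called in the early sub-breed (left) and late sub-breed (right) for genes of 12 GO terms listed in both tables, with filled points for the extracellular matrix genes of a term and open points for its other genes (numbers in brackets in this order), and a dashed line at 28.1% and 23.2% of all population genes. The filled point lies to the right in 11 terms in both sub-breeds and to the left for multicellular organismal development.

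Matrix genes of another term mostly had a higher called share than the other genes of that term. Of the 37 terms listed in both tables that hold at least 10 matrix genes and genes outside the list, this was so for 36 in each sub-breed, and the exception in each was multicellular organismal development. Many of these terms are nested, so they are not 37 separate cases. The whole matrix list, which the authors' enrichment test had listed, had 55.1% and 50.0% called in the early and late sub-breed. Higher shares of its genes inside most other terms largely restate this and are no further sign that the list stands apart. Under extracellular space, the term of secreted proteins, 68 matrix genes had 55.9% and 48.5% called in the early and late sub-breed, and the 220 other genes 43.6% in each. Under calcium ion binding, 46 matrix genes had 52.2% and 47.8% called and the 443 other genes 39.5% and 36.1%. SPARC, FBN1, COMP, ACAN and THBS1 were among the calcium-binding genes called in both, and MMP17, MFGE8 and CIB1 among those called in the early sub-breed alone. The term with most matrix genes among the processes was single-organism process, where 85 matrix genes had 62.4% and 56.5% called and the 1499 other genes 35.7% and 31.6%. Under developmental process, 73 matrix genes had 58.9% and 52.1% called and the 1660 other genes 32.2% and 29.3%. These included WNT5A, the growth-factor-binding CTGF and the fibrillin FBN1, all called in both. Under plasma membrane, 23 matrix genes had 65.2% and 52.2% called and the 907 other genes 35.3% and 29.1%, with ZP3, ZP2, GPC3 and GPC4 among the 23. Under extracellular matrix part the gap was small, with 54.2% and 52.1% for 48 matrix genes and 50.0% in each sub-breed for the 54 other genes. Under cell part, which covers anything inside or on a cell, it was larger, with 52.2% and 41.8% for 67 matrix genes and 25.5% and 19.8% for the 7566 other genes. The genes set against each other here differ in number, and the differences were not tested.

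The narrower term proteinaceous extracellular matrix had a smaller called share than the rest of the matrix list, a difference that was not tested. Proteinaceous extracellular matrix holds 116 of the 196 genes. Of these, 44 were called in both sub-breeds, 14 in the early sub-breed alone, 6 in the late sub-breed alone and 52 in neither. That is 50.0% in the early sub-breed, with 43.1% in the late sub-breed, against 62.5% and 60.0% of the 80 matrix genes outside that term. The 80 include the proteases MMP9, MMP15, MMP17 and MMP28, the fibrillar collagens COL3A1, COL5A1 and COL11A1, and LAMC3 and COL18A1 of basement membranes. As a measure of how richly the genes were annotated, the median number of other listed terms per gene was 11 for genes called in both, 10.5 for the early sub-breed alone, 14.5 for the late sub-breed alone and 11 for those called in neither, with ranges of 2 to 62, 3 to 59, 6 to 26 and 3 to 49.

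The genes called in the late sub-breed alone were few, and none has a name. Of these 10 genes 6 stand under proteinaceous extracellular matrix, 4 under extracellular matrix organization, 3 under glycosaminoglycan binding and 3 under calcium ion binding, and none under collagen or plasma membrane. Of all 196 matrix genes, 116, 47, 30, 46, 16 and 23 stand under these terms, in this order. With 10 genes the counts do not set the group apart from the whole list, and no difference was tested. ENSGALG00000000702 stands under cell adhesion, receptor binding, extracellular matrix organization and glycosaminoglycan binding at once. ENSGALG00000001532 stands under receptor binding and multicellular organismal development, the pair of terms that holds the 4 named Wnts, and was the 1 matrix gene called in the KEGG pathway Wnt signaling in the late sub-breed.

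The KEGG pathway tables touched few of the matrix genes. The pathway counts below stand beside 28.1% and 23.2% of all population genes of the GO tables called in the early and late sub-breed. The pathways hold few genes each, and no count was tested. In ECM-receptor interaction, the pathway of matrix ligands and their integrin receptors, 4 of 10 background genes were called in the early sub-breed, with 5 of 10 in the late sub-breed. The 4 were called in both: the matrix ligands COL3A1 and COL5A1, and COL5A2 and the integrin chain ITGB3, which are not under the GO term. In Focal adhesion, the pathway that leads from integrins into the cell, 8 of 23 genes were called in the early sub-breed, with 7 of 23 in the late sub-breed, again with COL3A1 and COL5A1 as the only members of the matrix list. Wnt signaling had 1 of 14 genes called in the early sub-breed, the receptor FZD10, and 2 of 14 in the late sub-breed, FZD10 and ENSGALG00000001532. The 4 named Wnts were called in the early sub-breed but are not among these genes, so the pathway count does not cover them. TGF-beta signaling had 1 of 6 called in each, and this gene was not a matrix gene. Cytokine-cytokine receptor interaction (6 of 10 and 5 of 10 in the early and late sub-breed) and Regulation of actin cytoskeleton (9 of 31 and 7 of 31) held no called matrix gene. The tables cover a small part of the genome. Of the genes called in any listed pathway, 3 of 156 in the early sub-breed and 4 of 132 in the late sub-breed were matrix genes. Among all called genes of the GO tables, 108 of 5037 and 98 of 4163 were matrix genes. The low pathway counts therefore do not set the matrix genes apart from other called genes, and no difference was tested.

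Some named genes lie side by side in the genome. By the gene order of the GRCg7b assembly, with no protein-coding gene between them, FMOD and PRELP are neighbours on chromosome 26. So are GPC3 and GPC4 on chromosome 4, and COL6A1 and COL6A2 on chromosome 7. All 6 genes were called in both sub-breeds, as were 46 of all 59 named genes. Every named gene was called in the early sub-breed, so these calls are no sign that neighbours go together. COL18A1, also called in both, has 2 protein-coding genes between it and COL6A1. ACAN, called in both, and MFGE8, called in the early sub-breed alone, have 1 protein-coding gene between them on chromosome 10. The assembly on which the authors aligned the reads is an older one, and its gene order was not compared.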

How the data were processed

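Messenger RNA of 4 libraries, each pooled from 5 ovaries, had been sequenced. SeqPrep and Sickle served the authors for trimming, TopHat for alignment to galGal4 (the aligner and build also in the submitters' processing notes) and Cuffdiff for calling genes from their FPKM values; tool versions are not given in the sources used here. The deposited GO (Goatools) and KEGG (KOBAS) tables give numbers and identifiers of called and background genes, with the authors' p-values and corrected p-values, which were not used. They hold no value per library.

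Members were the genes under extracellular matrix in either GO table, matched by identifier. The members, gene families and terms were chosen with earlier results of these data known. Gene lists of the late table, broken at 44 places, were rejoined, and all 44 identifiers were completed, after which every list had the deposited length (checked also on simulated tables). Genes were counted and percents calculated with Python 3.11.15, Wilson intervals at 95% with SciPy 1.17.1 and figures with matplotlib 3.10.9.

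Gene names, and nothing else, came from the supplementary list of differentially expressed genes, and 55 symbols and 4 synonyms matched GRCg7b. Fibrillar collagen, basement membrane and egg coat genes are all named; in other families up to 8, those called in 1 sub-breed first, then by identifier. Names beyond this were chosen after their values were seen. Other member lists and backgrounds were tried as alternatives.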

Additional observations from a re-analysis of the deposited data

How the results depend on the processing

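The called share of the matrix genes was above the background in each sub-breed under all 5 alternatives, which are no independent checks. It was 50.0 to 55.4% in the early sub-breed, with 43.1 to 51.1% in the late sub-breed, lowest for proteinaceous extracellular matrix. That term and extracellular matrix part were listed by the same enrichment test of the authors. The lists set by extracellular space and by process or function terms are parts of the same 196 genes. Leaving out broken identifiers kept all 196 genes and their calls, so that alternative could not have given another share. The number of genes called in both sub-breeds, 88 of 196, was 44 of the 116 genes of proteinaceous extracellular matrix, 44 of the 102 genes of extracellular matrix part and 58 of the 128 genes not under extracellular space, because these lists are shorter. It was 84 of 184 for genes that also stand under a process or function term, and 88 with broken identifiers left out. With the background limited to genes named under any listed term or a listed component term, its called share was 28.0 or 27.8% in the early sub-breed and 22.1 or 21.9% in the late sub-breed. No paired analysis was possible because each group has 1 library and the results come from no test, and for the same reason no library could be left out. The deposited tables hold no levels, so neither the criterion of the call nor depth was varied, and levels given in the study's supplement were not used here.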

Other observations

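The term extracellular matrix did not hold every gene of the named matrix families. Among the genes that both tables name, a further 27 with names of these families stand outside it. The family of growth factors and signals was left out of this count. All 27 were called in the early sub-breed, since only genes called there have names. Of the 27, 19 were called in both sub-breeds and 8 in the early sub-breed alone. Among all genes outside the matrix term that both tables name, 63.1% of those called in the early sub-breed were called in both. The count of 19 was not tested against this share and does not set the 27 genes apart. Proteins of the family that crosslinks or modifies matrix proteins, of which no named one stands under the term, were among them: LOXL2, a lysyl oxidase, PCOLCE2, an enhancer of procollagen cutting, LEPRE1, a prolyl hydroxylase, and TGM2, a transglutaminase, were called in both sub-breeds, and LEPREL1 and TGM3 in the early sub-breed alone. Of 5 collagens outside the term, the fibrillar COL5A2 and COL4A4 of basement membranes were called in both. COL7A1, COL9A3 and COL27A1, the last of which is also fibrillar, were called in the early sub-breed alone. The egg coat genes ZP4 and ZPD were called in both, as were ZP2 and ZP3 of the list.

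Another 11 named genes had symbols outside the family lists, of which 7 were called in both sub-breeds and 4 in the early sub-breed alone. The lists went by symbol, so this group can hold genes that act in the matrix. HTRA1, for one, was called in both and stands under catalytic activity but not under zinc ion binding. Some are known for roles outside the matrix. GUCA1A, a calcium sensor that activates guanylate cyclase in photoreceptors, was called in both and was also the matrix-listed gene of the pathway Phototransduction (3 of 6 genes called in the early sub-breed and 2 of 6 in the late sub-breed). ANXA2, a membrane-binding annexin, and APOH, a plasma protein that binds phospholipids, were called in both. So was THSD4, which is a protein of fibrillin microfibrils and so belongs to the matrix. OLFML2A, MFGE8, CIB1, an integrin-binding calcium sensor inside the cell, and LMCD1, a LIM domain protein, were called in the early sub-breed alone. The 4 matrix genes under immune response, among them VTN and THBS1, were called in both. Of the 188 immune response genes outside the matrix 52.7% were called in the early sub-breed, with 40.4% in the late sub-breed. A count of 4 genes does not set them apart, and no difference was tested.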
